A study of Mus musculus with 2 samples.

Results

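Cxcl12 encodes a chemokine, Cxcr4 its signalling receptor and Ackr3 a second, atypical receptor of the same ligand. These 3 genes were chosen by name out of the 32285 genes counted, and their unique molecular identifiers (UMIs, 1 per captured transcript) were summed per embryo and cell class. The data are single-cell RNA profiles of the cortex of 2 mouse embryos at embryonic day (E) 16.5, labelled replicates 4 and 5, with 1 library each. Both embryos were wild type (WT) controls of the EomesMllt3 line, kept as an Eomes-Cre mouse line, so no genotype, treatment or time was compared, and the comparisons below are between cell classes of the same embryos. The sample titles spell the line EoMltt3. The labels name no background strain, and C57BL/6J is the strain named in the supplement for cortex cells of this age. The cortex of each embryo was dissociated with papain. Whether the wild type controls came from 1 litter was not given in the sources used here.

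CXCL12 is a secreted attractant that binds the heparan sulfate around cells. CXCR4 is a G protein-coupled receptor that signals through inhibitory G proteins and draws cells towards the ligand. ACKR3, formerly called CXCR7, does not activate G proteins in the usual way. It recruits beta-arrestin and takes up CXCL12, which lowers the ligand around the cell and preserves CXCR4 from overload. In the developing cortex CXCL12 is made in the meninges and along the subventricular zone, and it holds tangentially migrating interneurons in their streams and Cajal-Retzius cells beneath the pia.

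Cxcl12 (ENSMUSG00000061353) lies on the plus strand of chromosome 6, from 117168535 to 117181368 (12834 bases). Cxcr4 (ENSMUSG00000045382) lies on the minus strand of chromosome 1, from 128588199 to 128592299 (4101 bases), and Ackr3 (ENSMUSG00000044337) on the plus strand of the same chromosome, from 90203980 to 90215724 (11745 bases). These positions are those of GRCm38.p6 in RefSeq, and no other gene of that table overlaps any of the 3.

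The libraries held 124318613 UMIs in 12825 barcodes (embryo 4) and 117679925 UMIs in 12289 barcodes (embryo 5). After filtering, 10017 and 10521 cells were kept, with medians of 10029 and 8856 UMIs per cell. The libraries shared 46 barcode sequences, at most 0.374% of either. Cells were clustered without the 3 genes, and 23 of 34 clusters were named by marker lists, always as "-like" classes, while 30.1% of cells stayed unnamed. A doublet score marked all 80 endothelial-like barcodes (100%), 83.1% of 77 choroid plexus-like and 91.2% of 57 microglia-like ones, and these were kept because their clusters had distinct markers, while with all marked barcodes removed these classes gave no value. Intervals given for single values are 95% exact counting intervals and cover counting error only.

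In the kept cells Cxcl12 had 1881 UMIs in embryo 4 and 2112 in embryo 5, Cxcr4 had 509 and 330, and Ackr3 had 2428 and 2216. Each gene was concentrated in a few classes, and these classes differed from gene to gene. Levels are given as CPM, the usual depth-scaled unit, in which the UMIs of a gene in a class and embryo are divided by the UMIs of all genes there.

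**Figure D1:**
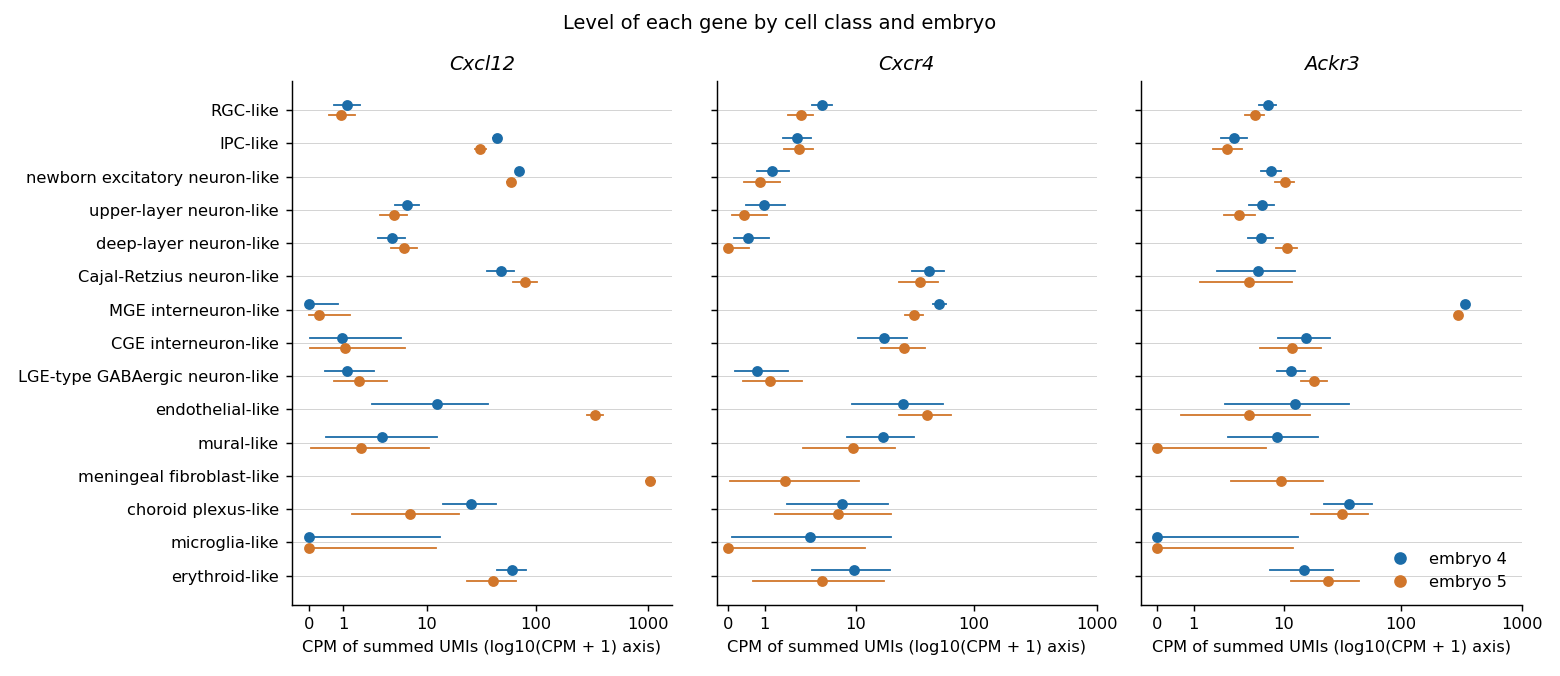
CPM of Cxcl12, Cxcr4 and Ackr3 (horizontal axes, logarithmic after adding 1) in each named class (rows), with 1 point per embryo and its 95% exact Poisson interval. Cxcl12 was highest in the meningeal fibroblast-like cells of embryo 5 (1049 CPM), Cxcr4 lay between 31.6 and 51.7 CPM in both MGE interneuron-like and Cajal-Retzius neuron-like sums, and Ackr3 was at 339.7 and 297 CPM in the MGE interneuron-like class and at or below 37.3 CPM in the other named classes.

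The ligand came from few sources. Meningeal fibroblast-like cells, the connective tissue cells of the brain's coverings, were captured in embryo 5 (46 cells) and in embryo 4 as a single cell. They held 552 Cxcl12 UMIs in embryo 5, a level of 1049 CPM (963 to 1140), and 45 of the 46 cells held at least 1 UMI, with up to 33 in a cell. The single cell of embryo 4 held 3. These cells made up 0.437% of the kept cells of embryo 5 and held 26.1% of its Cxcl12 UMIs. With 1 embryo holding the class, its level has no replicate and entered no test.

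Intermediate progenitor cells (IPCs), the Eomes-expressing progenitors of the subventricular zone, were another source. In IPC-like cells Cxcl12 stood at 45.2 CPM (560 UMIs, 1222 cells) in embryo 4 and 31.9 CPM (345 UMIs, 1272 cells) in embryo 5, a mean of 38.6 ± 9.4 (SD, n = 2). In newborn excitatory neuron-like cells it stood at 71.8 CPM (829 UMIs) and 60.5 CPM (582 UMIs), a mean of 66.2 ± 8.0. In radial glial cell (RGC)-like cells, the apical stem cells that IPCs derive from, it was at 1.15 and 0.926 CPM, with 18 and 14 UMIs among 1383 and 1452 cells. Both newborn values lay above both IPC-like values, and both IPC-like values far above both RGC-like values. The newborn class held 44.1% and 27.6% of all Cxcl12 UMIs of the embryos, and the IPC-like class 29.8% and 16.3%. The unnamed cells together held 13.8% and 14.0%. Where the border between the IPC-like and newborn classes fell depended on the clustering: over all processing alternatives the mean level ranged from 19.0 to 38.6 CPM in IPC-like cells and from 41.0 to 83.0 CPM in newborn cells.

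The question of whether Cxcl12 differed along this lineage was addressed with edgeR's quasi-likelihood test on the sums, with Benjamini-Hochberg adjustment over all genes tested. Several sums enter more than 1 of the pairs below, so the comparisons are not independent of each other. Between IPC-like and RGC-like cells, where 43.7% of the 15217 genes tested passed (20.4% higher and 23.3% lower), Cxcl12 was higher in IPC-like cells by 5.24 ± 0.50 on the log2 scale (SE, adjusted p = 4.26e-09). Ackr3 was lower in IPC-like cells by 0.97 ± 0.29 (adjusted p = 0.00904), from 7.16 and 5.36 CPM in RGC-like to 3.31 and 2.78 CPM in IPC-like cells. Cxcr4 did not pass, with a log2 difference of -0.45 ± 0.34 (adjusted p = 0.307) and levels of 2.66 and 2.78 CPM in IPC-like and 4.86 and 2.91 CPM in RGC-like cells. In the same pair all 10 cycling genes of the list were lower in IPC-like cells.

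Between newborn neuron-like and IPC-like cells, where 33.3% of genes passed (19% higher and 14.3% lower), Cxcl12 was higher in the newborn class by 0.97 ± 0.32 on the log2 scale (adjusted p = 0.0214). This call was lost with DESeq2's Wald test (0.90 ± 0.75, adjusted p = 0.393) and with a minimum of 2000 detected genes per cell (0.66 ± 0.31, adjusted p = 0.0971). Ackr3 was higher in the newborn class by 1.73 ± 0.29 (adjusted p = 3.61e-05), with 7.71 and 10.3 CPM against 3.31 and 2.78 CPM. Without embryo 5 that log2 difference was 1.11. Cxcr4 was at 1.30 and 0.832 CPM in newborn cells, and its log2 difference of -1.12 ± 0.45 missed the threshold (adjusted p = 0.0568). With the embryo as a block the same gene passed (-1.14 ± 0.42, adjusted p = 0.0339), and it also passed under several other alternatives, listed below. As whole classes, newborn cells thus held more Cxcl12 and Ackr3 than IPC-like cells, with the Cxcl12 call depending on the method. Cxcr4 was low in both classes, and single clusters did not all follow the class order.

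Within these classes Cxcl12 was uneven. The IPC-like cluster led by Gadd45g, Neurog2 and Smoc1 held 3.22 and 1.37 CPM of Cxcl12 with 11 and 4 UMIs. The IPC-like cluster led by Kif26b, Eomes and Neurog2 held 68.3 and 48.9 CPM, and the cycling one, led by Pclaf, Rrm2 and Neil3, held 39.3 and 28.5 CPM. Eomes itself was at similar levels in the first 2 of these clusters, 651 ± 89 and 700 ± 57 CPM, whereas Neurod1, a later neurogenic factor, was at 11.9 ± 4.3 and 256 ± 27 CPM, and Unc5d, a netrin receptor of migrating neurons, at 181 ± 35 and 3487 ± 4 CPM (means ± SD, n = 2). Gadd45g, a growth arrest gene among the IPC markers, went the other way, from 698 ± 42 to 241 ± 1 CPM.

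Of the newborn, IPC-like and layer neuron-like clusters, 1 newborn cluster held the highest Cxcl12 level. It was led by Gm29683, Fign and B130024G19Rik and held 152 and 134 CPM of Cxcl12 (292 and 201 UMIs in 204 and 187 cells), and 62.7% and 54.5% of its cells held a UMI. The larger newborn cluster, led by Unc5d, Cdh8 and Neurod1, held 55.8 and 46.9 CPM, and 30.1% and 26.9% of its cells held a UMI. Nr2f2, a transcription factor of the caudal telencephalon, was at 480 ± 61 CPM in the former and 30.1 ± 9.0 CPM in the latter, and Tfap2d, another transcription factor, at 167 ± 14 and 31.7 ± 3.7 CPM. An unnamed cluster led by Thsd7a, Tafa1 and Tfap2d, with Nr2f2 at 494 ± 83 CPM, held 31.7 and 28.0 CPM of Cxcl12. Upper-layer neuron-like cells were at 6.37 and 4.62 CPM and deep-layer neuron-like cells at 4.39 and 5.96 CPM. The Cxcl12 mean of the Unc5d-led newborn cluster, 51.4 ± 6.3 CPM, was not above the 58.6 ± 13.7 CPM of the Kif26b-led IPC-like cluster. Ackr3 was at 10.4 ± 2.2 CPM in the Unc5d-led and 1.71 ± 0.52 CPM in the Gm29683-led newborn cluster, against 3.04 ± 0.38 CPM in the IPC-like class. The clusters were drawn from the same cells, so these differences are a description and were not tested.

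**Figure D2:**
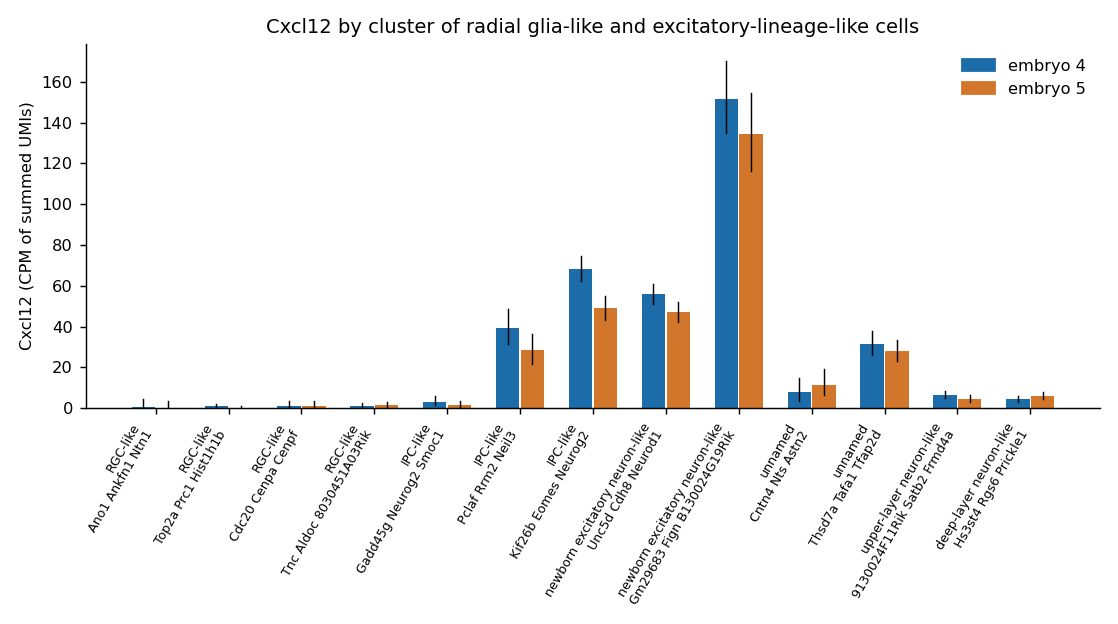
Cxcl12 in CPM (vertical axis, from 0) in the clusters of RGC-like and excitatory-lineage-like cells, with 1 bar per embryo and its 95% exact Poisson interval, named by class and leading genes. The RGC-like bars and the Gadd45g-led IPC-like bars are near 0, and the Gm29683-led newborn bars reach 152 and 134 CPM.

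Cajal-Retzius neuron-like cells, the reelin-secreting neurons of the marginal zone, held Cxcl12 at 49.0 CPM (51 UMIs, 70 cells) and 81.1 CPM (69 UMIs, 59 cells). Their own marker Reln was at 9882 to 11295 CPM, and all 8 meningeal fibroblast markers were at 0 in embryo 4 and summed to 5.88 CPM in embryo 5. The newborn neuron markers summed to 251 and 297 CPM in them, against 7161 and 7918 CPM in the newborn class. A Cxcl12 UMI was found in 32.9% and 35.6% of these cells, at median depths of 15176 and 13890 UMIs, and 9 and 14 UMIs were the most in a cell. In MGE interneuron-like cells, set beside them as a class with almost no UMI of the gene, 0 and 0.155% of cells held one at median depths of 6393.5 and 6343 UMIs. The count of 0 among 672 cells allows up to 0.446% of cells with a UMI and a level of up to 0.657 CPM, which limits detection and not expression. With every cell thinned to 2000 UMIs the Cajal-Retzius share was 8.57% and 10.2%, against 0 in the MGE class, 7.72% and 5.47% in IPC-like and 12.1% and 11.8% in newborn cells.

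The order of the Cxcl12 means, with the meningeal class set aside, was endothelial-like (176 CPM), newborn (66.2), Cajal-Retzius (65.0), erythroid-like (51.7) and IPC-like (38.6). Neighbours in this order overlapped between the embryos, so their order is not resolved. The erythroid-like class pooled 2 haemoglobin-led clusters, with Cxcl12 means of 95.0 and 13.4 CPM, and in each of them the cells of 1 embryo held few erythroid markers (310 and 1420 CPM). CGE interneuron-like and LGE-type GABAergic neuron-like cells were at or below 1.78 CPM, and microglia-like cells held no Cxcl12 UMI, which at 26 and 31 cells allows up to 11.0 and 9.91 CPM.

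The signalling receptor Cxcr4 had its highest means in interneuron-like, Cajal-Retzius neuron-like and endothelial-like cells. Medial ganglionic eminence (MGE) interneuron-like cells, the class of Sst and parvalbumin interneurons, held 51.7 CPM in embryo 4 (236 UMIs, 672 cells, 45.3 to 58.7) and 31.6 CPM in embryo 5 (136 UMIs, 644 cells, 26.5 to 37.4), a mean of 41.6 ± 14.2. Their markers Lhx6, Sox6 and Maf were all above 264 CPM in both embryos, while Nkx2-1, the factor that specifies the MGE, was at 1.39 to 6.13 CPM. Cajal-Retzius neuron-like cells held 42.3 CPM (44 UMIs) and 35.3 CPM (30 UMIs), a mean of 38.8 ± 5.0. Endothelial-like cells held 25.4 and 40.5 CPM on 6 and 17 UMIs, and caudal ganglionic eminence (CGE) interneuron-like cells 17.6 and 26.1 CPM on 18 and 24 UMIs. These 4 neighbours in the order overlapped between the embryos. The MGE class alone held 46.4% and 41.2% of all Cxcr4 UMIs while making up 6.71% and 6.12% of the cells.

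A Cxcr4 UMI was found in 28.7% and 18.2% of MGE interneuron-like cells and in 37.1% and 40.7% of Cajal-Retzius cells (medians of 15176 and 13890 UMIs per cell). In deep-layer neuron-like cells 0.580% and 0 of cells held one, at median depths of 12503.5 and 10664 UMIs, and the 0 among 703 cells allows up to 0.427% of cells with a UMI in that embryo. At 2000 UMIs per cell the shares were 10.4% and 7.23% in the MGE class, 10.0% and 3.39% in the Cajal-Retzius class and 3.66% and 3.33% in the CGE class. The thinned Cajal-Retzius shares rest on 7 of 70 and 2 of 59 cells. At equal depth they were not above the MGE shares in either embryo, but such counts are too low to resolve a difference.

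Ackr3 had a single dominant class. MGE interneuron-like cells held 339.7 CPM in embryo 4 (1552 UMIs) and 297 CPM in embryo 5 (1278 UMIs), a mean of 318 ± 30. The class held 63.9% and 57.7% of all Ackr3 UMIs, and the unnamed cells together 17.3% and 22.9%. The next named class in order of CPM, choroid plexus-like cells of the epithelium that makes cerebrospinal fluid, held 37.3 and 32.1 CPM on 20 and 14 UMIs. The gap between these classes exceeded the summed SDs and their embryos did not overlap. LGE-type GABAergic neuron-like cells were at 11.7 and 18.7 CPM, CGE interneuron-like cells at 15.7 and 11.98 CPM, and Cajal-Retzius neuron-like cells at 5.77 and 4.70 CPM on 6 and 4 UMIs.

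At least 1 Ackr3 UMI was found in 78.4% and 75.6% of MGE interneuron-like cells, against 6.60% and 5.13% of CGE interneuron-like cells (medians of 4066 and 5754 UMIs per cell) and 3.03% and 1.65% of IPC-like cells (medians of 9780.5 and 8066.5 UMIs). At 2000 UMIs per cell the MGE share was 44.9% and 44.2% and the CGE share 2.62% and 1.33%. In embryo 4, 145 MGE cells held no Ackr3 UMI, 157 held 1, 262 held 2 to 4 and 108 held 5 or more. In embryo 5 these counts were 157, 166, 252 and 69. The most in a cell was 11 and 10 UMIs, so the level came from most cells of the class rather than from a few.

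**Figure D3:**
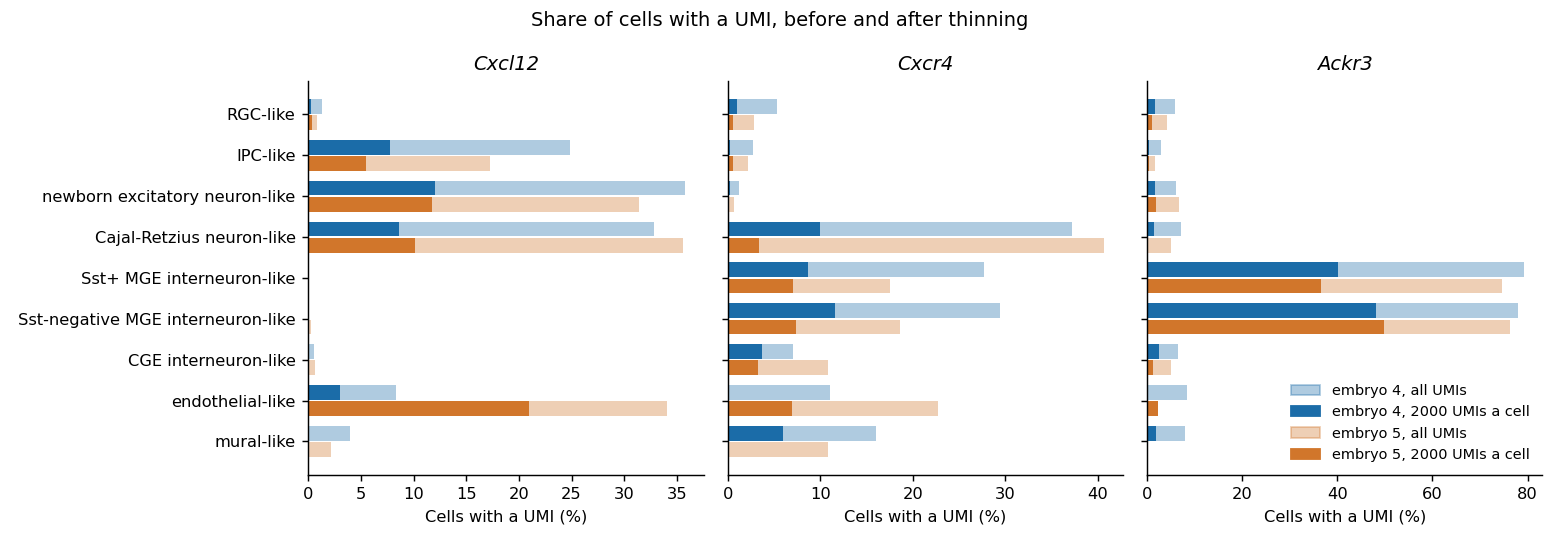
Percentage of cells with at least 1 UMI of each gene (horizontal axes, from 0) in 9 classes, for each embryo. Pale bars are all UMIs and the dark bars drawn over them are cells thinned to 2000 UMIs. Ackr3 in the Sst+ and Sst-negative MGE interneuron-like bars stays above 36% after thinning in both embryos, and Cxcl12 is at or near 0 in the same cells.

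Radial glia-like cells held Ackr3 unevenly. The 280 cells of the cluster led by Ano1, Ankfn1 and Ntn1 held 44.8 and 25.5 CPM on 57 and 26 UMIs, out of 112 and 81 in the RGC-like class. The 2 RGC-like clusters with the highest Top2a, a gene of dividing cells (1242 ± 123 and 499 ± 103 CPM), held 3.48 and 3.24 CPM of Ackr3 together. The other RGC-like clusters, the Ano1-led one included, held 11.3 and 7.96 CPM together, and Top2a in the Ano1-led cluster was at 255 ± 75 CPM. The largest RGC-like cluster, led by Tnc and Aldoc (1278 cells), held Ackr3 at only 4.58 ± 0.40 CPM. This lay between the dividing clusters, the Top2a-led one at 2.34 ± 0.43 CPM and the Cdc20-led one at 6.27 ± 1.39 CPM.

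The first comparison of interneurons was between those of the MGE and the CGE. In this pair 6.2% of the genes tested passed (3.74% higher and 2.46% lower), and Ackr3 was among them, higher in MGE interneuron-like cells by 4.65 ± 0.29 on the log2 scale (adjusted p = 2.54e-11). Its 2 MGE values (339.7 and 297 CPM) lay far above the 2 CGE values (15.7 and 11.98 CPM). For Cxcr4 the difference was 1.07 ± 0.35 (adjusted p = 0.0666), which missed the threshold, and with the embryo as a block it was 1.05 ± 0.32 and passed (adjusted p = 0.0436). The embryos disagreed in its size, with log2 differences of 1.52 without embryo 5 and 0.27 without embryo 4. Cxcl12 had at most 1 UMI per embryo in both classes, too few to compare them.

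Of the other chemokine genes 1 ligand passed in this pair, and 0 of 9 receptors did. Over all genes tested 3.74% were higher and 2.46% lower in the MGE class. Cxcl14, another secreted chemokine, was lower in MGE cells by 6.35 ± 0.57 (0.451 against 42.5 CPM, adjusted p = 2.26e-08) and was the only 1 of 9 other chemokine ligands tested that passed. Of 15 genes of receptor coupling and desensitization, Grk3 and Arrb1 were higher and Rgs16 lower in the MGE class. Grk3, a kinase that phosphorylates active receptors, stood at 20.9 against 5.66 CPM (log2 difference 2.02 ± 0.54, adjusted p = 0.0205). Arrb1, the beta-arrestin 1 that binds the phosphorylated receptor, stood at 48.5 against 29.7 CPM (0.84 ± 0.25, adjusted p = 0.0423). Rgs16, which shortens G protein signals, stood at 3.13 against 19.5 CPM (-2.49 ± 0.45). The median log2 difference over the 15 was 0.00, against 0.10 over all genes tested.

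Against newborn excitatory neuron-like cells, where 35.9% of genes passed (19.6% higher and 16.3% lower), both receptors were higher in MGE interneuron-like cells and the ligand was lower. The log2 differences were 5.23 ± 0.36 for Cxcr4 (adjusted p = 5.16e-12) and 5.15 ± 0.21 for Ackr3 (adjusted p = 3.60e-16). Cxcl12 passed in the other direction (adjusted p = 1.06e-08), but the MGE class held only 0 and 1 UMIs. In embryo 4 its level in newborn cells was at least 109-fold higher, set against a floor of 3 UMIs in the MGE sum, and in embryo 5 the ratio was 261 (46.6 to 10315). The MGE class thus held the receptors with almost no ligand UMI, and the newborn class the ligand with little of either receptor. Of the coupling genes, 5 of 15 were higher and 2 lower in the MGE class, among them Gng2, a G protein gamma subunit (1091 against 223 CPM, 2.29 ± 0.16), Arrb1 (48.5 against 16.7 CPM, 1.54 ± 0.18) and Rgs16 (3.13 against 10.6 CPM, -1.75 ± 0.34), all with adjusted p below the threshold.

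**Figure D4:**
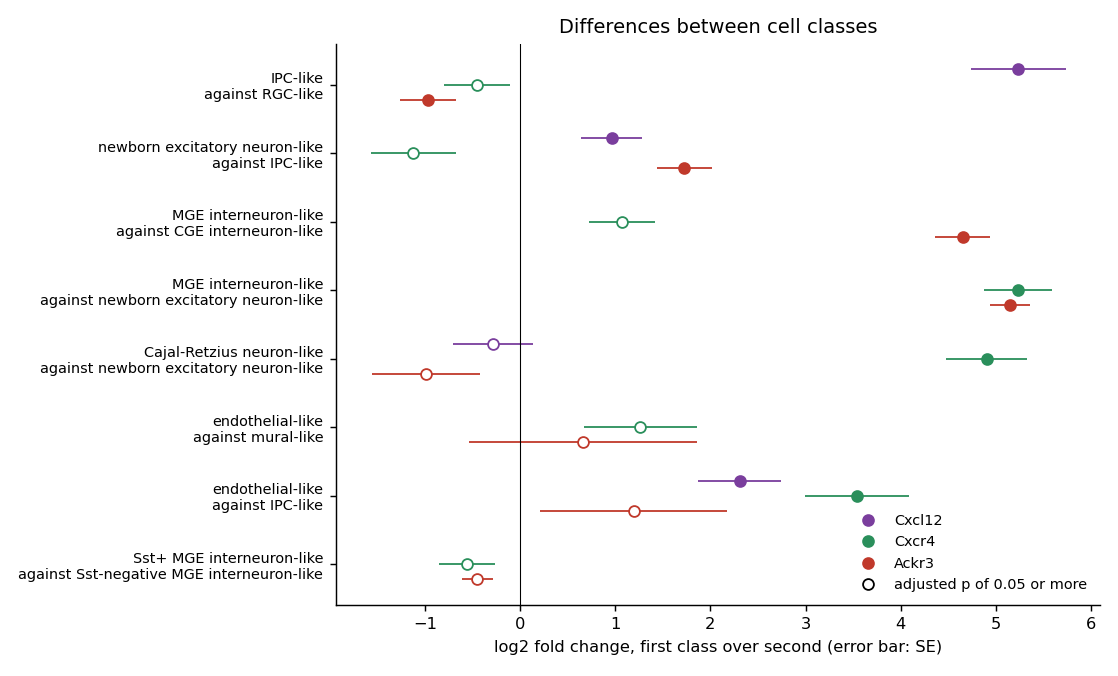
Log2 fold change of the first class over the second (horizontal axis), with its SE, for each gene in the 8 pairs of classes tested. Filled points passed edgeR's quasi-likelihood test at an adjusted p under 0.05, and Cxcl12 is left out where a class had 3 UMIs or fewer in total. Ackr3 lies at 4.65 and 5.15 in the pairs that set MGE interneuron-like cells against another class, and Cxcl12 at 5.24 between IPC-like and RGC-like cells.

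Within the MGE class, cells with an Sst UMI (264 and 268) were set against those without (408 and 376). Sst+ cells held Ackr3 at 297 and 238 CPM and Sst-negative cells at 379 and 351 CPM, so both Sst+ values were lower. The log2 difference of -0.45 ± 0.17 did not pass over 15111 genes (adjusted p = 0.302), in a pair where 0.913% of genes passed (0.655% higher and 0.258% lower). Cxcr4 was at 39.3 and 27.3 CPM in Sst+ cells and at 63.0 and 35.5 CPM in Sst-negative cells, and its difference of -0.56 ± 0.29 did not pass either (adjusted p = 0.582). Median depth was 8001 and 7094.5 UMIs in Sst+ cells and 5402 and 5913 in Sst-negative cells. At 2000 UMIs per cell Ackr3 was found in 40.2% and 36.6% of Sst+ cells and in 48.1% and 49.7% of Sst-negative cells.

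Cells holding UMIs of both receptors were counted next. In the MGE class 162 and 94 cells held Cxcr4 and Ackr3 together, and the product of the separate shares gave 151 and 88.5. Of the cells with a Cxcr4 UMI, 83.9% and 80.3% also held Ackr3, against 76.2% and 74.6% of the cells without. After thinning the counts were 30 and 23 beside products of 31.0 and 20.3, and the direction was not the same in both embryos. Cells with Ackr3 alone made up 54.3% and 61.0% of the class and cells with Cxcr4 alone 4.61% and 3.57%. In the Cajal-Retzius class the pattern was the other way round, with Cxcr4 alone in 35.7% and 39.0% of cells, Ackr3 alone in 5.71% and 3.39%, and both in 1 cell of each embryo.

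Set against newborn neuron-like cells, Cajal-Retzius neuron-like cells differed in the signalling receptor. In this pair 38.5% of genes passed (18.2% higher and 20.2% lower), and Cxcr4 was higher in Cajal-Retzius cells by 4.90 ± 0.43 on the log2 scale (adjusted p = 7.94e-10), at 42.3 and 35.3 CPM against 1.30 and 0.832 CPM. Cxcl12 differed by -0.29 ± 0.42 (adjusted p = 0.645) and Ackr3 by -0.99 ± 0.57 (adjusted p = 0.187), and neither passed. The Cajal-Retzius embryos lay on either side of the newborn embryos for Cxcl12. Cells with both Cxcl12 and Cxcr4 numbered 8 and 9, beside 8.54 and 8.54 from the product of the shares.

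Among the other ligands and partners tested in this pair were Ramp2 and Ramp3, which form receptors with Calcrl for adrenomedullin, a peptide that ACKR3 also binds. Ramp2 was at 43.5 CPM in Cajal-Retzius cells and 0.797 in newborn cells (5.45 ± 0.48), and Ramp3 at 11.0 and 0.173 CPM. Mif, a cytokine that binds CXCR4, was at 830 against 357 CPM (0.98 ± 0.16). These 3 were the members that passed among the 8 other ligands and partners tested, all higher. Of all genes 38.5% passed in this pair (18.2% higher and 20.2% lower), so the number passing in the list was near that share. Its median log2 difference was 0.80 against -0.08 over all genes. Of the 15 coupling genes 5 were higher and 3 lower in Cajal-Retzius cells, beside the same shares of all genes. Rgs4, another regulator that ends G protein signals, stood at 102 against 0.182 CPM, Arrb2 at 35.9 against 12.1 CPM (1.34 ± 0.23), and Rgs16 at 3.58 against 10.6 CPM (-1.75 ± 0.56, adjusted p = 0.0145).

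Among vascular cells, the embryos differed widely in the Cxcl12 level of the endothelial-like class. Endothelial-like cells, which line the vessels, were 36 in embryo 4 and 44 in embryo 5. Cxcl12 stood at 12.7 CPM in embryo 4 (3 UMIs in 3 cells, 2.62 to 37.1) and at 339 CPM in embryo 5 (142 UMIs in 15 cells, 285 to 399). Their intervals did not overlap, and the mean of 176 ± 230 CPM describes neither embryo. In embryo 5 the 4 cells with the most UMIs held 86 of the 142 (60.6%). Mural-like cells, the pericytes and smooth muscle around the vessels, held 2 and 1 Cxcl12 UMIs, or 3.46 and 1.89 CPM. Median depth was 4607 UMIs in the endothelial-like cells of embryo 4 and 8651.5 in those of embryo 5.

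The cells of embryo 5 that held Cxcl12 also held more UMIs of genes of arterial endothelium. A list of 9 such genes (Gja4, Gja5, Bmx, Sema3g, Efnb2, Hey1, Sox17, Gkn3 and Vegfc), drawn up after the values were seen, summed to 2223 CPM in the 15 cells with a Cxcl12 UMI and to 224 CPM in the 29 cells without. The general endothelial markers were also higher in those 15 cells, at 7795 against 5279 CPM. In embryo 4 the arterial genes summed to 321 CPM in the 3 cells with a Cxcl12 UMI and 342 CPM in the 33 without. In embryo 5 Gja4, a gap junction protein of arteries, was at 942 CPM in cells with a Cxcl12 UMI against 25.7 CPM without. Vegfc, a vascular growth factor, was at 434 against 0 CPM there, and Sox17, an arterial transcription factor, at 258 against 69.9 CPM. In embryo 4 the same genes were in turn at 107 against 45.2, 0 against 45.2 and 0 against 75.4 CPM. The 8 meningeal fibroblast markers had 4 UMIs in the 15 cells. Over the whole endothelial-like class they summed to 21.2 CPM with 6 of 8 at 0 in embryo 4 and 40.5 CPM with 4 of 8 at 0 in embryo 5. The 7 markers of newborn neurons summed to 1223 and 639 CPM in the class and the Cajal-Retzius markers to 647 and 47.7 CPM, and their part in these values was not tested. The 3 Cxcl12-holding cells of embryo 4 had newborn markers at 3875 CPM, against 724 CPM in its other endothelial-like cells. The groups were made from the gene itself, so no test is given.

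**Figure D5:**
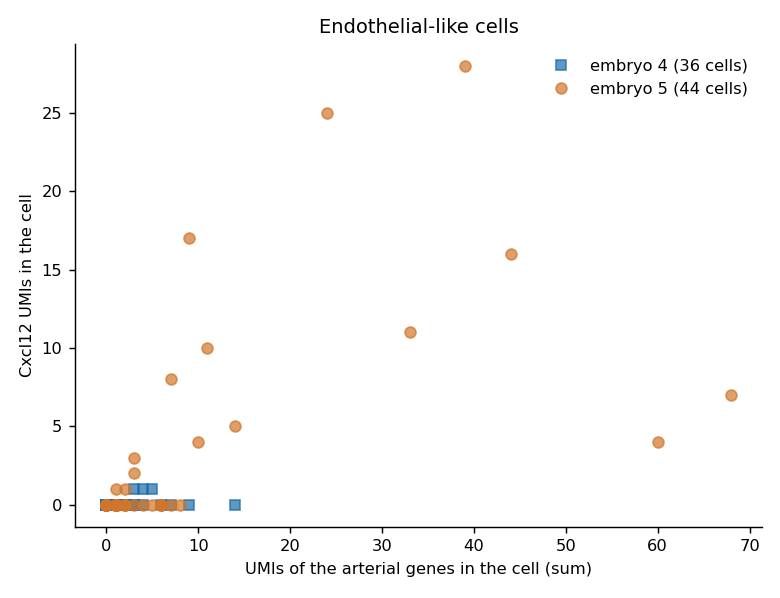
Each point is an endothelial-like cell of embryo 4 (squares, 36 cells) or embryo 5 (circles, 44 cells), with the summed UMIs of the 9 arterial genes on the horizontal axis and Cxcl12 UMIs on the vertical axis, without correction for depth. The cells of embryo 4 hold at most 1 Cxcl12 UMI, and those of embryo 5 reach 28.

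Against mural-like cells, where 20.7% of genes passed (11.3% higher and 9.38% lower), Cxcl12 passed as higher in endothelial-like cells (adjusted p = 4.65e-05). The ratio was 3.67 in embryo 4 (0.420 to 43.9) and 180 in embryo 5 (31.7 to 7140), so the difference was outside counting error in embryo 5 alone, and the log2 difference without embryo 5 was 1.74. Cxcr4 (1.27 ± 0.60, adjusted p = 0.146) and Ackr3 (0.66 ± 1.20, adjusted p = 0.770) did not pass. Mural-like cells held Cxcr4 at 17.3 and 9.43 CPM on 10 and 5 UMIs and Ackr3 at 8.65 CPM and 0 on 5 and 0 UMIs. These low UMI counts leave the receptor differences unresolved at this depth.

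Against IPC-like cells, where 32% of genes passed (16.8% higher and 15.2% lower), Cxcr4 was higher in endothelial-like cells by 3.54 ± 0.55 on the log2 scale (adjusted p = 1.06e-05), in both embryos. Cxcl12 passed as well, at 2.31 ± 0.43 (adjusted p = 1.64e-04), but without embryo 5 the difference turned to -1.79, and in a fit of these classes alone it missed the threshold (adjusted p = 0.0536). Ackr3 did not pass (1.20 ± 0.98, adjusted p = 0.391). The atypical chemokine receptor Ackr2, which binds inflammatory chemokines, was at 31.8 CPM in endothelial-like, 0.865 in mural-like and 0.0403 in IPC-like cells, and passed in both pairs. Of the 8 other ligands and partners tested, 4 were higher and 1 lower in endothelial-like than in IPC-like cells. The largest differences were those of Ramp2 (740 CPM), Calcrl (92.4 CPM) and Adm, the adrenomedullin gene (63.0 CPM), each at or below 1.17 CPM in IPC-like cells. Against mural-like cells 3 were higher and 1 lower, beside 11.3% and 9.38% of all genes. Among them was Dpp4, a protease that inactivates CXCL12, at 25.5 CPM against 0, which in embryo 5 allows up to 5.66 CPM.

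Along the excitatory lineage, 3 of the 15 coupling genes were higher and 4 lower in IPC-like than in RGC-like cells, beside 20.4% and 23.3% of all genes, so the list was near that background. Rgs16 was at 18.4 against 3.45 CPM (2.47 ± 0.23), Grk3 at 23.1 against 8.42 CPM (1.51 ± 0.23) and Gnai2, an inhibitory G protein subunit that CXCR4 couples to, at 153 against 477 CPM (-1.58 ± 0.22). From IPC-like to newborn cells 3 were higher and 3 lower, beside 19% and 14.3% of all genes, with Arrb1 at 16.7 against 6.62 CPM (1.52 ± 0.20), Grk3 at 9.90 against 23.1 CPM (-1.04 ± 0.24) and Gng2 at 223 against 132 CPM (0.95 ± 0.16). Mif was lower in IPC-like than in RGC-like cells (597 against 1285 CPM, -1.05 ± 0.16) and lower again in newborn cells (357 CPM, -0.56 ± 0.15, adjusted p = 0.00632). Ackr1, a chemokine-binding receptor of the erythroid lineage, was higher in IPC-like than RGC-like cells at 4.95 against 1.95 CPM (1.39 ± 0.31). Ccl27a was the 1 chemokine ligand of the list higher in newborn than in IPC-like cells, at 49.1 against 21.3 CPM (1.39 ± 0.14). Where no p is given, the adjusted p was below 0.05. Rgs5, Cx3cr1 and Pf4 are class markers and were left out of these counts.

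The genes whose levels went most alike with each of the 3 were found by the Pearson correlation of log2(CPM + 1) over the 28 sums of 14 classes, a description over sums that share libraries. For Cxcl12 these were Ap3s1 (0.87), Ntng2 (0.80), Palmd (0.77), Slc2a13 (0.75) and Hs3st1 (0.71). For Cxcr4 they were Abtb2 (0.77), Rbms3 (0.75), Ptprm (0.72), Ppp2r5c (0.69) and Nr2f2 (0.69). For Ackr3 they were Cntnap3 (0.81), Arl5a (0.80), Dlgap2 (0.79), Chrm3 (0.78) and Cacnb4 (0.75), each highest in the MGE interneuron-like class. Among themselves the genes correlated at 0.13 (Cxcl12 and Cxcr4), -0.09 (Cxcl12 and Ackr3) and 0.39 (Cxcr4 and Ackr3).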

How the data were processed

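Single-cell RNA libraries were made from the cortex of 2 wild type E16.5 embryos (10x Genomics 3′ v3.1). The authors deposited raw UMI counts per gene and barcode, made with Cell Ranger (7.0.0 in the submitters' processing notes, 7.1.0 in the matrix headers) on mm10. Values are counts, not normalized. Counts of 3′ tags were not divided by gene length. How intron reads were counted is not given in the sources used here, and a dependence of levels on gene length was not tested.

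Barcodes with fewer than 1000 detected genes or over 10% mitochondrial counts were left out (1772 and 765 for genes, 174 and 56 for mitochondrial counts). Doublets were scored against 2 simulated doublets per cell at a rate of 0.8% per 1000 cells, and 947 and 1052 barcodes were marked, of which 91 and 105 in clusters of a distinct named class were kept. Clusters came from the Leiden method at resolution 1 on a graph of 20 neighbours, built from 30 principal components of 2000 variable genes after log scaling to 10000 UMIs a cell (scikit-learn 1.9.0, leidenalg 0.10.2, Python 3.11.15). The 75 genes of the members and pathway lists were kept out of the clustering. A cluster was named from the class marker lists, and classes with fewer than 20 cells in an embryo entered no test.

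UMIs were summed per embryo and class, and 28 sums of 14 classes were fitted once with edgeR 4.0.16 (R 4.3.3; TMM, filterByExpr, quasi-likelihood test, two-sided, threshold 0.05 after Benjamini-Hochberg adjustment over 15217 genes). The embryo is the replicate (n = 2). Sst+ and Sst-negative cells were tested in a second fit (15111 genes). Classes of an embryo come from the same animal, so the sums are paired. The correlation of same-embryo deviations was 0.024 to 0.25 over the 8 pairs of classes, and the fit with the embryo as a block is given beside a result where it changed the call. Fits of 2 classes, DESeq2 1.42.0, other filters and clusterings and leaving out an embryo were alternatives. The scripts were tested on simulated data.

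Named genes were the 3 members, at most 3 called genes per pathway list and pair with the largest log2 difference, and the 5 most alike genes of each member. The members, lists and classes were chosen with earlier results of these data known, and no list is independent support. A fold against 0 UMIs was set against a floor of 3 UMIs, except in the ratios with 1 embryo left out, which add 0.5 CPM and are no bounds.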

Additional observations from a re-analysis of the deposited data

Results flagged for a closer look

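Signals in cells outside the comparisons stood out in 3 places. In the meningeal fibroblast-like cluster of embryo 5, led by Dcn, Col1a2 and Col3a1 (46 cells), Cxcl12 was at 1049 CPM, against a mean of 19.8 CPM over all kept cells of the embryos. Embryo 4 had 1 such cell, so there is no replicate.

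In an unnamed cluster led by Cntn4, Nts and Astn2 (291 cells), Ackr3 was at 54.6 ± 14.3 CPM (SD, n = 2; 44.6 and 64.7), above the 22.9 CPM of all kept cells and second to the MGE interneuron-like cells among clusters. A UMI was found in 26.1% and 26.8% of its cells. Its best-scoring marker list was the erythroid one. None of that list's markers was among its leading genes, whereas Calb2 and Ebf1, markers of other classes, were, so it stayed unnamed and entered no test.

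In an erythroid-like cluster led by Hba-a1, Hbb-bt and Hbb-bs (67 cells), Cxcl12 was at 95.0 ± 43.0 CPM (125 in embryo 4 and 64.6 in embryo 5). The erythroid markers summed to 310 CPM in its cells of embryo 4 and to 44275 CPM in those of embryo 5, so the markers behind the name were high in embryo 5 alone. Markers of newborn excitatory neurons summed to 3056 and 2361 CPM and those of IPCs to 1200 and 1153 CPM in the same cells, and their part in the Cxcl12 level was not tested.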

How the results depend on the processing

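Of 350 values of the 24 tested differences recomputed under an alternative with a test, 328 kept their direction and their side of the threshold. Cxcr4 in newborn neuron-like against IPC-like cells (log2 difference -1.12) passed the threshold at -1.19 with DESeq2's size factors, -1.19 without the filter on low counts, -1.14 with the replicate block, -1.21 with DESeq2's Wald test, -1.20 in a fit of these classes alone, -1.21 with at least 2000 genes per cell, -1.24 with at most 5% mitochondrial counts, -2.02 with doublets kept, -1.11 with the members in the clustering, and -1.21 with all high doublet scores removed, an alternative chosen after seeing the data. Cxcr4 in MGE against CGE interneuron-like cells passed at 1.02 without the filter, 1.05 with the block, 1.18 with at most 5% mitochondrial counts and 1.77 with doublets kept. The block changed no other call. Cxcl12 in newborn against IPC-like cells missed the threshold at 0.90 with DESeq2's Wald test and 0.66 with at least 2000 genes, and in endothelial-like against IPC-like cells at 2.34 in a fit of these classes alone. The direction of Cxcl12 turned in Cajal-Retzius against newborn cells, where no setting passed, to 0.14 with at least 500 genes, 0.18 with at least 2000, 0.41 at resolution 2 and 0.068 with the members in the clustering, and in MGE against CGE cells, with at most 1 UMI per sum without those doublets, to 0.83 with doublets kept. The cause was not tested.

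With 1 embryo left out there is no test, and the log2 ratio of CPM with 0.5 CPM added ranged as follows. Against a sum of 0 to 3 UMIs, as for Cxcl12 in MGE, CGE, mural-like and Sst+ cells and Ackr3 in mural-like cells, it depends on the added value and is neither a fold to read nor a bound. In IPC-like against RGC-like cells it ran from 4.51 to 4.79 for Cxcl12, from -0.76 to -0.058 for Cxcr4 and from -1.01 to -0.84 for Ackr3. In newborn against IPC-like cells it ran from 0.66 to 0.91, from -1.30 to -0.81 and from 1.11 to 1.72 for the same genes in turn. In MGE against CGE cells it ran from -1.57 to -1.12, from 0.27 to 1.52 and from 4.39 to 4.57, and in MGE against newborn cells from -7.18 to -6.38, from 4.59 to 4.86 and from 4.78 to 5.37. In Cajal-Retzius against newborn cells it ran from -0.55 to 0.42, from 4.57 to 4.75 and from -1.05 to -0.39. In endothelial-like against mural-like cells it ran from 1.74 to 7.15, from 0.54 to 2.05 and from 0.53 to 3.40, and against IPC-like cells from -1.79 to 3.39, from 3.03 to 3.65 and from 0.69 to 1.79, with the -1.79 for Cxcl12 without replicate 5. In Sst+ against Sst-negative cells it ran from -0.92 to 0, from -0.67 to -0.37 and from -0.56 to -0.36. Of 465 CPM levels under alternatives 62 moved by over 1.5 times. Removing all high doublet scores left too few endothelial-like cells for a value. Having 2 embryos, and few UMIs of Cxcr4 or Ackr3 in the vascular sums, limits what could be resolved, and free RNA was not removed.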

Other observations

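In newborn excitatory neuron-like cells the ligand and the atypical receptor were found together in few cells. Cells with a Cxcl12 UMI numbered 424 and 363 and cells with an Ackr3 UMI 72 and 77, and 10 and 11 cells held both, where the product of the shares gives 25.7 and 24.2. Within the larger cluster of the class alone, 9 and 9 cells held both, beside products of 20.5 and 20.2. The median depth was 9378 and 9795 UMIs in the cells with both and 9516.5 and 8041.5 UMIs in all cells of the class. In IPC-like cells the counts of cells with both were 9 and 3, beside products of 9.20 and 3.62. These counts were noticed in the data and were not tested.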
